A study of Mus musculus with 4 samples.

Results

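Cycling nuclei were followed through the mouse heart 3 days after myocardial infarction (3dpMI), in single-nucleus RNA sequencing of hearts carrying an edited Vegfa allele and of wild-type (WT) hearts. A nucleus was counted as cycling when at least 4 of 11 genes of chromosome segregation and cell division were detected in it (Mki67, Top2a, Cenpf, Cenpe, Kif11, Anln, Bub1, Aspm, Prc1, Knl1 and Diaph3). The nuclei were thus chosen by measured UMIs, so the levels of these genes in them are no finding. A nucleus also had to hold at least 500 unique molecular identifiers (UMIs, which stand for single captured RNA molecules) and at least 300 genes, with at most 10% of its UMIs from mitochondrial genes. The rule was met by 1552 of the 17269 nuclei that passed these filters at 3dpMI, and the series holds 28216 deposited nuclei in all. Of the cycling nuclei, 962 came from the Q150X library and 590 from the WT library.

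The study used 4 libraries, with 1 library in each group: Q150X 3dpMI, WT 3dpMI, Q150X homeostasis (no infarction) and WT homeostasis. Q150X is an allele of Vegfa, the gene of vascular endothelial growth factor A, made by CRISPR/Cas9 editing to imitate a stop-gained variant of the human gene. No driver that would limit the allele to 1 cell type is named, and the sources used here leave its zygosity unclear, since the design text and the titles differ. They give no strain or age and do not say whether hearts were pooled, and the labels give the cells as total cells of the heart. With 1 library in a group no test of the difference between groups can be made. The intervals below are exact Poisson or binomial 95% intervals, or log intervals for ratios of shares, and cover counting error only. The libraries held 8125 nuclei and 32657625 UMIs in Q150X 3dpMI, 9157 and 30413471 in WT 3dpMI, 6544 and 9283645 in Q150X homeostasis, and 4390 and 5875965 in WT homeostasis. Pairs of libraries shared between 39 and 117 cell barcodes, and 15 of the 962 cycling Q150X nuclei had a barcode also found in the WT 3dpMI library, against 6 of the 590 cycling WT nuclei with a barcode of the Q150X 3dpMI library.

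A dividing cell copies its DNA in S phase and separates the copies in mitosis, and the genes of both steps are switched on in waves. S-phase genes, which fire replication origins and supply nucleotides, are classical targets of E2F factors. Genes of G2 and mitosis are repressed in resting cells by the DREAM complex through a promoter element called CHR (cell cycle genes homology region), and activated by B-MYB and FOXM1. CCAAT boxes bound by NF-Y often lie upstream of a CHR. After infarction, fibroblasts, endothelial cells and macrophages of the mouse heart are known to divide in the first days, while adult cardiomyocytes divide very little. VEGF-A acts on endothelial cells through the receptor Kdr, with Flt1 as a high-affinity receptor that also serves as a decoy.

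The promoters of the genes that define or accompany these nuclei are shown first, because these elements mark the promoters of both waves. Sequences are from RefSeq on build GRCm38.p6 and run 5′ to 3′ on the gene's strand, from 130 bases before the annotated start to 30 after it. Capitals mark the CHR (TTTGAA or TTTAAA), the CCAAT box and the E2F site (GCGGGAA or GCGCGAA), on either strand, so that TTCAAA and ATTGG are the same motifs read from the other strand. The first 4 promoters belong to genes of the rule: Top2a, the topoisomerase that untangles sister DNA, chr11:99024160-99024319 (minus strand), Cenpf, a kinetochore protein, chr1:189688057-189688216 (minus strand), Kif11, the motor that pushes spindle poles apart, chr19:37376252-37376411 (plus strand), and Prc1, which bundles microtubules between separating chromosomes, chr7:80294321-80294480 (plus strand). The next 3 are genes outside the rule: Ccnb2, a mitotic cyclin, chr9:70421525-70421684 (minus strand), Cdk1, its kinase, chr10:69352883-69353042 (minus strand), and Parpbp, which restrains homologous recombination, chr10:88146912-88147071 (minus strand). The last 3 are S-phase genes: Mcm3 and Mcm6, subunits of the replicative helicase, chr1:20820283-20820442 (minus strand) and chr1:128359676-128359835 (minus strand), and Orc1, a subunit of the origin recognition complex, chr4:108579324-108579483 (plus strand).
Top2a: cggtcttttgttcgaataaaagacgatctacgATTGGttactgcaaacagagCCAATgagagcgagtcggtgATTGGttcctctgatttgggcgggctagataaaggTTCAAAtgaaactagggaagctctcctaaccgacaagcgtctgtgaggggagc
Cenpf: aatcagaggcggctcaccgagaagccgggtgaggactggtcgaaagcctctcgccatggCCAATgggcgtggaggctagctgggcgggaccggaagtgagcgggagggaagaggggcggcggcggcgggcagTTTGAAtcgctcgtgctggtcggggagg
Kif11: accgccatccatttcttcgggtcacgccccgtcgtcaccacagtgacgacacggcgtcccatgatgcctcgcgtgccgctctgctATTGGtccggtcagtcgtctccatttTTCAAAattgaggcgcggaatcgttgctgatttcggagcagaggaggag
Prc1: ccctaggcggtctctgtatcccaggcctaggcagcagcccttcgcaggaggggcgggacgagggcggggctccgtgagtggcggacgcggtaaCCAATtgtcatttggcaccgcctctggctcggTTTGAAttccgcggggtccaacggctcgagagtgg
Ccnb2: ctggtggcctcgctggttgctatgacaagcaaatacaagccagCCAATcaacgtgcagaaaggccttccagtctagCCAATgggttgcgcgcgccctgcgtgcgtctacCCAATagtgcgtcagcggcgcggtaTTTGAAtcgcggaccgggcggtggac
Cdk1: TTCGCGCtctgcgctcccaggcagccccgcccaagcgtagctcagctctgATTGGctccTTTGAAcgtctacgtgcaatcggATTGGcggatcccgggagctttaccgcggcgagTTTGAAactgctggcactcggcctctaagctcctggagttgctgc
Parpbp: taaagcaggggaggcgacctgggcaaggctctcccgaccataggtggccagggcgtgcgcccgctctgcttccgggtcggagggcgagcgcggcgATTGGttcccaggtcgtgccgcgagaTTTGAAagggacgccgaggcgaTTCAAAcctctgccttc
Mcm3: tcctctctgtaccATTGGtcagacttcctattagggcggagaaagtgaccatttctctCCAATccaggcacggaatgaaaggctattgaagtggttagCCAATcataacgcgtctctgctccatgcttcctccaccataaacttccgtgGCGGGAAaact
Mcm6: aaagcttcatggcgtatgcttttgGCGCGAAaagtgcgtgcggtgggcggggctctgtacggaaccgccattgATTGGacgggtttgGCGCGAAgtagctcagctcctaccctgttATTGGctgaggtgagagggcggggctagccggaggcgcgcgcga
Orc1: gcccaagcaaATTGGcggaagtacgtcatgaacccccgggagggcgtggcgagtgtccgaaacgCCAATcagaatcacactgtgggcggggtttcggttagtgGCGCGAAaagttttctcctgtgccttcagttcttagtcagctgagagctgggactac

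The printed promoters are examples picked without a rule, and the shares over whole groups of genes follow below. Each of the first 7 held at least 1 CHR in the printed stretch and at least 1 CCAAT box. Among these 7, an E2F site stood in that of Cdk1 alone. The printed promoters of Mcm3, Mcm6 and Orc1 held no CHR and at least 1 E2F site each. Over all genes with a RefSeq promoter, a CHR lay within 50 bases of the start, on either side, in 8 of the 11 rule genes (72.7%), in 29 of 50 G2 and mitosis genes of the lists (58.0%), in 5 of 44 S-phase genes (11.4%) and in 2228 of all 27025 genes (8.24%). An E2F site lay anywhere in the 300 bases around the start in 0 of 11, 7 of 50 (14.0%), 20 of 44 (45.5%) and 6.06% of the same groups. CCAAT boxes were common in all of them, at 81.8%, 70.0%, 63.6% and 37.9%. TTTAAA reads the same on both strands, motifs were counted separately, so that different motifs may share bases, and a match of letters does not show binding. Of 60 G2 and mitosis genes and 52 S-phase genes in the lists, 50 and 44 had a promoter in the table.

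The same letters followed the size of the difference between cycling and other fibroblast nuclei. A CHR near the start was found in 30 of 48 genes that were at least 16-fold higher in the cycling nuclei of both libraries (62.5%), in 42 of 139 genes between 4-fold and 16-fold (30.2%), in 27 of 216 between 2-fold and 4-fold (12.5%), and in 356 of 9168 below 2-fold (3.88%). The E2F site, counted over the whole 300 bases, was most frequent in the middle bins, at 12.5%, 31.7%, 26.9% and 10.8%, and within 50 bases of the start it was found in 8.33%, 17.3%, 16.7% and 4.01%. These shares describe the genes of 1 comparison that the marker genes chose, and no test was made of them.

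The 11 rule genes were at the levels their choice requires, which is given here as a description. Mki67, whose protein coats mitotic chromosomes, stood at a level of 495 CPM (UMIs of the gene per 1000000 UMIs of the nuclei) in cycling and 51.8 in other Q150X nuclei, and at 537 and 29.6 CPM in WT. Top2a stood at 328 and 15.3 CPM in Q150X, and at 348 and 11.2 in WT. Bub1, a kinase of the spindle checkpoint, stood at 84.9 and 2.6 CPM in Q150X and 79.0 and 1.8 in WT. Diaph3, an actin-assembling formin, stood at 1221 and 68.0 CPM in Q150X and 1308 and 49.0 in WT. Since the rule chose the nuclei by these genes, no likeness or difference between genotypes is read from their levels.

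The threshold cut a continuous range. Just inside it, 146 Q150X and 96 WT nuclei had exactly 4 marker genes, with median depths of 4554.5 and 4199.5 UMIs. Just outside, 216 Q150X and 151 WT nuclei had 3, with medians of 3992 and 3338 UMIs. S-phase genes outside the rule summed to 3905 CPM (Q150X) and 4355 CPM (WT) in nuclei with 4 markers, and to 3103 and 3280 CPM in nuclei with 3. G2/M genes outside the rule summed to 3898 and 4538 CPM with 4 markers, and to 2856 and 2972 CPM with 3. Nuclei with no marker, 4492 in Q150X (55.3%) and 6581 in WT (71.9%), had S-phase sums of 771 and 627 CPM and G2/M sums of 912 and 781 CPM. In the nuclei with all 11 markers, 111 in Q150X and 54 in WT, the G2/M sum reached 11608 and 10769 CPM while the S-phase sum was 2368 and 2224 CPM. The S-phase sum was thus highest in the middle of the range and the G2/M sum at its end, in both libraries.

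**Figure D1:**
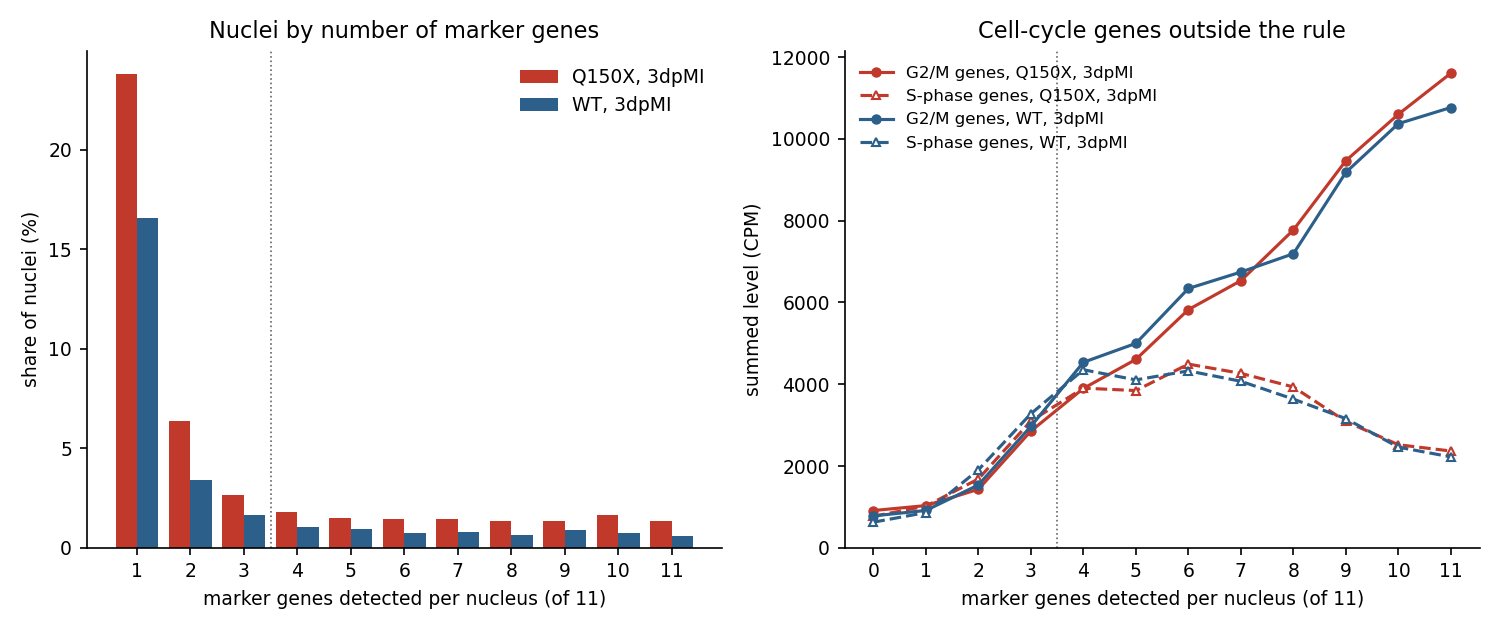
Left, the share of 3dpMI nuclei (percent of the library) by the number of the 11 marker genes detected, with 0 left off the axis; right, the summed level (CPM) of G2/M and S-phase genes outside the rule against the same number, for Q150X (red) and WT (blue). The dotted line marks the threshold; G2/M sums climb to 11608 CPM (Q150X) and 10769 CPM (WT) at 11 markers, where S-phase sums are 2368 and 2224 CPM.

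Among cycling nuclei, the balance of S-phase against G2/M transcripts lay on the G2/M side. Each nucleus was thinned to 2000 UMIs, and only nuclei with at least 5 S-phase and G2/M UMIs were counted. Among fibroblasts these were all 264 cycling and 728 of 2006 other nuclei in Q150X, and all 153 and 465 of 1595 in WT. The median share of S-phase UMIs among S-phase and G2/M UMIs was 20% in cycling and 50% in other fibroblast nuclei of Q150X. In WT it was 24.0% and 50%. In endothelial nuclei it was 22.9% and 50% in Q150X and 26.3% and 50% in WT, and in macrophage nuclei 25.8% and 55.0% in Q150X and 20.7% and 57.1% in WT. Nuclei with more S-phase than G2/M UMIs made up 4.81% to 10.8% of the cycling nuclei of the 3 classes, counting only nuclei with at least 5 such UMIs. The marker genes are genes of G2 and mitosis, so the rule counts S-phase nuclei only where such genes were detected, and the share of nuclei in S phase is not measured by it.

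The cycling nuclei were split by which of 3 groups of 4 genes had the most genes detected. The fibroblast genes were Pdgfra, Col3a1, Col1a2 and Gpc6, the endothelial genes Pecam1, Cdh5, Flt1 and Ptprb, and the macrophage genes Csf1r, Adgre1, Mrc1 and Mertk. In Q150X, 441 cycling nuclei fell to fibroblasts, 175 to endothelial cells and 210 to macrophages, 136 were tied and 0 had none of the genes. In WT, 260 fell to fibroblasts, 128 to endothelial cells and 134 to macrophages, 66 were tied and 2 had none. Only 4 of the 962 Q150X nuclei and 3 of the 590 WT nuclei were placed by a single gene. The split genes chose the classes, so their levels are given as a description and are no finding. Pdgfra, the receptor for platelet-derived growth factor that marks fibroblasts, stood at 270 CPM in cycling fibroblast nuclei of Q150X. In cycling endothelial and macrophage nuclei of Q150X it stood at 8 CPM each. In WT it stood at 264, 5 and 3 CPM in fibroblast, endothelial and macrophage nuclei. Pecam1, the endothelial junction protein, stood at 1073 CPM in endothelial nuclei against 35 and 50 CPM in fibroblast and macrophage nuclei of Q150X, and at 891 against 27 and 65 CPM in WT. Csf1r, the receptor for macrophage growth factor, stood at 287 CPM in macrophage nuclei against 16 and 19 CPM in fibroblast and endothelial nuclei of Q150X, and at 275 against 8 and 16 CPM in WT.

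The make-up of the cycling nuclei was close in both genotypes. Fibroblasts held 45.8% of them in Q150X and 44.1% in WT, a ratio of 1.04 (0.928 to 1.17). Endothelial nuclei held 18.2% in Q150X and 21.7% in WT, a ratio of 0.839 (0.684 to 1.03), and macrophages 21.8% and 22.7%, a ratio of 0.961 (0.794 to 1.16). The intervals include 1, which does not show that the make-up was the same. Among all nuclei split in the same way, the make-up differed more: the endothelial share in Q150X over WT was 0.642 (0.607 to 0.679), the macrophage share 1.71 (1.60 to 1.83) and the fibroblast share 1.04 (1.0 to 1.07).

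Cycling nuclei were a larger share of the heart's nuclei in Q150X than in WT. They made up 962 of 8120 nuclei in Q150X (11.8%, 11.2 to 12.6%) and 590 of 9149 in WT (6.45%, 5.95 to 6.97%), a ratio of 1.84 (1.67 to 2.03). The Q150X nuclei were also more deeply sequenced, with a median of 2859.5 UMIs against 2131 in WT. With each nucleus thinned to 2000 UMIs, and shallower nuclei left out, the shares were 570 of 5403 (10.5%) in Q150X and 352 of 4853 (7.25%) in WT, a ratio of 1.45 (1.28 to 1.65). Nuclei rich in cardiomyocyte transcripts, a cardiomyocyte-rich nucleus being one in which Ttn, Myh6, Ryr2, Actn2, Tnnt2 and Myl2 take at least 3% of the UMIs, numbered 445 in Q150X and 1275 in WT. Without them the shares were 12.5% in Q150X and 7.34% in WT, a ratio of 1.71 (1.55 to 1.88). Without them and with thinning, the shares were 11.3% and 9.26%, a ratio of 1.22 (1.08 to 1.39). The direction was the same under all of these, while the size of the ratio depended on them.

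Split by class, the ratio was above 1 in fibroblast and endothelial nuclei and near 1 in macrophage nuclei. For shares within a class, nuclei with at least 2 of the 4 genes of that class, and more than of any other, were counted. Among fibroblasts, 439 of 3255 nuclei were cycling in Q150X (13.5%, 12.3 to 14.7%) and 257 of 3253 in WT (7.90%, 7.0 to 8.88%), a ratio of 1.71 (1.48 to 1.98) that was 1.33 (1.10 to 1.61) with thinning. Among endothelial nuclei, 174 of 1486 were cycling in Q150X (11.7%, 10.1 to 13.5%) and 128 of 2527 in WT (5.07%, 4.24 to 5.99%), a ratio of 2.31 (1.86 to 2.88) that was 1.55 (1.16 to 2.07) with thinning. Among macrophages, 209 of 1637 were cycling in Q150X (12.8%, 11.2 to 14.5%) and 134 of 1015 in WT (13.2%, 11.2 to 15.4%), a ratio of 0.967 (0.790 to 1.18) that was 0.814 (0.637 to 1.04) with thinning. Whether the ratio differs between classes was not tested.

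Cardiomyocyte-rich nuclei, a set defined after seeing the data, were a larger share of other than of cycling nuclei in fibroblasts and macrophages of both libraries, and were more frequent in WT. Among fibroblast nuclei they were 0 of 439 cycling and 197 of 2816 other nuclei (7.0%) in Q150X, and 5 of 257 cycling (1.95%) and 414 of 2996 other nuclei (13.8%) in WT. Among endothelial nuclei they were 1 of 174 cycling and 16 of 1312 other nuclei (1.22%) in Q150X, and 6 of 128 cycling (4.69%) and 92 of 2399 other nuclei (3.83%) in WT. Among macrophages they were 0 of 209 and 26 of 1428 (1.82%) in Q150X, and 1 of 134 and 30 of 881 (3.41%) in WT. Without them the ratio of cycling shares, Q150X over WT, was 1.61 (1.39 to 1.87) in fibroblasts, 2.34 (1.88 to 2.93) in endothelial nuclei and 0.960 (0.784 to 1.18) in macrophages. With thinning as well it was 1.27 (1.05 to 1.53), 1.53 (1.14 to 2.04) and 0.805 (0.630 to 1.03).

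**Figure D2:**
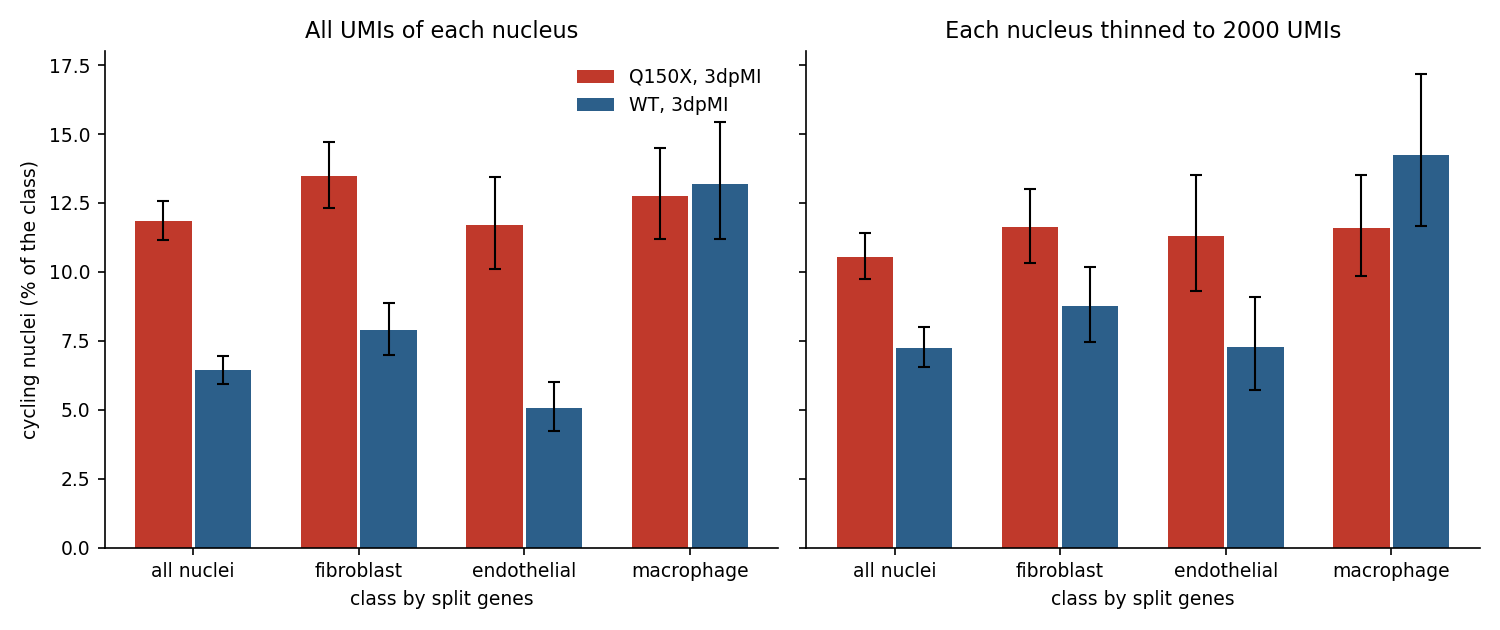
Share of nuclei that are cycling (percent of the class, 95% Clopper-Pearson interval) at 3dpMI, in all nuclei and in 3 classes, for Q150X (red) and WT (blue), with all UMIs (left) and with each nucleus thinned to 2000 UMIs (right). Q150X bars are higher for all nuclei, fibroblasts and endothelial nuclei, and the intervals of the macrophage bars overlap (12.8% in Q150X and 13.2% in WT with all UMIs).

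Depth moved with the cycling call, and its part in the call was addressed by the thinned values above. Cycling nuclei had a median of 6674.5 UMIs and other nuclei 2561.5 in Q150X, against 6077.5 and 2009 in WT. The gap was widest in fibroblasts, with 8278 and 3000 UMIs in Q150X and 8381 and 2350 in WT. At matched depth, the cycling share of fibroblast nuclei was 13.7% in Q150X and 10.7% in WT among those with at least 4000 and under 8000 UMIs, and 44.8% and 36.6% among those with 8000 or more. The cycling share of endothelial nuclei was 29.0% in Q150X and 23.4% in WT between 4000 and 8000 UMIs, and 39.5% and 30.9% at 8000 or more. In both of these classes the Q150X share was the higher one in every bin of depth, with intervals that overlapped in most of them. Macrophages showed no such order, with 7.14% in Q150X and 11.5% in WT between 2000 and 4000 UMIs, 28.9% and 32.3% between 4000 and 8000, and 27 of 69 (39.1%) and 8 of 36 (22.2%) at 8000 or more.

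**Figure D3:**
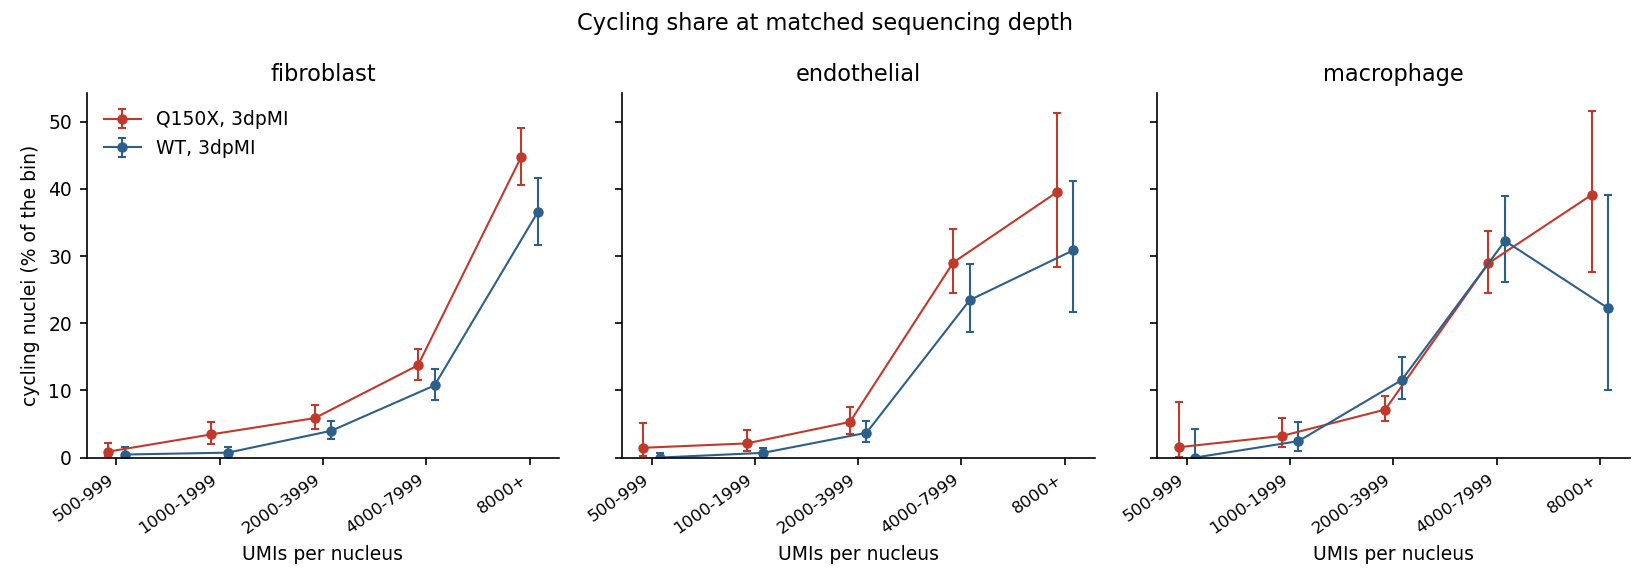
Share of nuclei that are cycling (percent of the bin, 95% Clopper-Pearson interval) against UMIs per nucleus, in fibroblast, endothelial and macrophage nuclei at 3dpMI, for Q150X (red) and WT (blue). In fibroblast and endothelial nuclei the share climbs with depth in both libraries, to 44.8% (Q150X) and 36.6% (WT) of fibroblast nuclei with 8000 or more UMIs. In WT macrophages it is 32.3% between 4000 and 8000 UMIs and 22.2% (8 of 36) at 8000 or more.

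The same rule found few nuclei without infarction. In the homeostasis libraries it took 29 of 6478 nuclei in Q150X (0.448%, 0.300 to 0.642%) and 10 of 4381 in WT (0.228%, 0.110 to 0.419%). The share at 3dpMI over that at homeostasis was 26.5 (18.3 to 38.2) in Q150X and 28.3 (15.1 to 52.7) in WT. The homeostasis nuclei were shallower, with medians of 994 UMIs in Q150X and 934 in WT, and with thinning the ratios were 17.6 (7.90 to 39.3) in Q150X and 13.1 (4.89 to 34.9) in WT, from 6 of 1002 and 4 of 720 homeostasis nuclei. The mix of nuclei differed as well. With thinning, the share with none of the split genes, 3dpMI over homeostasis, was 0.0729 in Q150X and 0.167 in WT. The part of this mix in the ratios over all nuclei was not tested. By class, homeostasis cycling nuclei were 7 of 2218 fibroblast nuclei in Q150X (0.316%) and 3 of 799 in WT (0.375%), 8 of 870 (0.920%) and 2 of 610 (0.328%) endothelial nuclei, and 6 of 251 (2.39%) and 2 of 45 (4.44%) macrophage nuclei. In Q150X fibroblasts with thinning, the ratio of 3dpMI over homeostasis was 7.64 (2.47 to 23.6). In WT fibroblasts with thinning, 3 of 61 homeostasis nuclei were cycling and the ratio of 3dpMI over homeostasis was 1.78 (0.584 to 5.42), so that a difference in this class was not detectable at that depth. The interval also included 1 in Q150X endothelial nuclei with thinning, at 2.41 (0.786 to 7.38), and in WT macrophages with all UMIs, at 2.97 (0.759 to 11.6).

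Few cardiomyocyte-rich nuclei met the rule. They were 1 of 445 in Q150X (0.225%) and 12 of 1275 in WT (0.941%), although the nuclei of this kind that did not meet it had median depths of 6922 and 6087 UMIs. With thinning they were 0 of 371 in Q150X, which allows a share of up to 0.809%, and 2 of 1075 in WT (0.186%). Pericyte-marked nuclei, with at least 3 markers of the cells that wrap capillaries, were cycling in 79 of 519 in Q150X (15.2%, 12.2 to 18.6%) and 55 of 879 in WT (6.26%, 4.75 to 8.07%), and in 7.96% and 3.89% with thinning. Lymphatic endothelial nuclei were cycling in 13 of 79 (16.5%) in Q150X and 22 of 83 (26.5%) in WT. Nuclei with at least 3 smooth muscle markers were cycling in 11 of 36 (30.6%) in Q150X and 4 of 49 (8.16%) in WT. Those with at least 3 B-cell markers were cycling in 9 of 70 (12.9%) and 0 of 19, which allows up to 15.8%. The lymphatic, smooth muscle and B-cell shares use all UMIs, and depth moved with the cycling call. Neutrophil, T or NK, endocardial, monocyte, dendritic and Schwann markers each named at most 8 cycling nuclei in a library. These nuclei can also be counted in a class above, since their markers were not part of the split.

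With all UMIs, cycling nuclei more often carried genes of 2 classes, which did not hold in Q150X with thinning. At least 2 genes of a second class were detected in 49.1% of cycling and 35.3% of other nuclei in Q150X, and in 36.8% and 22.8% in WT. With thinning the shares were 17.7% and 24.1% in Q150X and 16.2% and 15.7% in WT. Scrublet called 19.2% of cycling and 8.73% of other nuclei doublets in Q150X, and 19.2% and 11.7% in WT, and among nuclei thinned to 2000 UMIs the shares were 13.9% and 13.1% in Q150X and 13.4% and 17.7% in WT. The markers of cardiomyocytes and pericytes and the genes of the 3 split classes were all detected in the cycling nuclei of each class, with none at 0. The 6 cardiomyocyte markers summed to 415 CPM in cycling and 7881 CPM in other fibroblast nuclei of Q150X, and to 2458 and 17800 CPM in WT. In endothelial nuclei the sums were 986 and 2218 CPM in Q150X and 4237 and 9511 CPM in WT, and in macrophages 510 and 3202 CPM in Q150X and 2169 and 6698 CPM in WT. The part of these transcripts in the gene differences below was not tested, beyond the values without cardiomyocyte-rich nuclei.

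Genes were then compared between cycling and other nuclei of a class, with UMIs summed over nuclei and scaled to CPM, among genes with at least 50 UMIs. Since the rule chose the nuclei by this contrast, its values are a description. In fibroblasts 4.11% of 12399 genes were at least 2-fold higher in both libraries and 6.70% at least 2-fold lower. In endothelial nuclei 3.91% of 9762 genes were higher and 1.68% lower, and in macrophages 3.33% of 8253 genes were higher and 2.10% lower. Without cardiomyocyte-rich nuclei the higher genes numbered 441, 376 and 258 in fibroblast, endothelial and macrophage nuclei, where all nuclei gave 510, 382 and 275. The lower genes numbered 462, 147 and 23 without them, where all nuclei gave 831, 164 and 173. The lower side thus depended on these nuclei, above all in macrophages.

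The spindle, kinetochore and mitotic kinase lists were higher in every class. A list gene counted as measured had at least 50 UMIs, which a gene silent in other nuclei could reach only through the cycling ones, so the counts of lists describe these nuclei and support nothing beyond them. Of the 22 genes of the spindle and cytokinesis list, all 22 measured passed 2-fold in fibroblasts, all 20 in endothelial nuclei and all 18 in macrophages, with median log2 ratios of 4.56, 4.56 and 4.59 in Q150X and 5.03, 4.82 and 4.37 in WT. The median over all genes tested lay between −0.01 and 0.07 on the same scale. Kif14, a motor of cytokinesis, stood at 113 CPM in cycling and 2.59 CPM in other fibroblast nuclei of Q150X and at 111 and 1.76 CPM in WT, ratios of 43.6 (29.9 to 65.9) and 62.8 (38.9 to 108). Kif18b, a motor that shortens microtubules, was 57.3 times higher in fibroblasts of Q150X and 36.9 in WT, and 72.0 and 39.3 in macrophages. Ckap2l, a spindle protein, reached 140 against 4.82 CPM in endothelial nuclei of Q150X and 122 against 1.46 CPM in WT. Ckap5, a microtubule polymerase that resting cells also use, had the smallest ratio of the list in fibroblasts, at 3.37 in Q150X and 3.39 in WT.

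The kinetochore and checkpoint list passed in 21 of 21, 16 of 16 and 15 of 15 measured genes of fibroblast, endothelial and macrophage nuclei. Nuf2, which ties the kinetochore to microtubules, stood at 66.0 against 1.43 CPM in fibroblasts of Q150X and 75.7 against 1.95 CPM in WT. Sgo1, the protector of centromeric cohesion, was 24.3 times higher in endothelial nuclei of Q150X and 48.3 in WT. The mitotic kinases and cyclins passed in 17 of 17, 11 of 11 and 9 of 9. Ccnb1, the main mitotic cyclin, stood at 47.9 against 1.70 CPM in fibroblasts of Q150X and 37.2 against 0.684 CPM in WT. Foxm1, the transcription factor that activates mitotic genes, stood at 83.5 against 2.03 CPM in endothelial nuclei of Q150X and 69.4 against 3.66 CPM in WT, with ratios of 41.2 and 19.0, and of 23.7 and 18.2 in macrophages. Ccnf, an F-box cyclin that directs protein degradation, stood in macrophages at 171 against 4.36 CPM in Q150X and 161 against 3.89 CPM in WT.

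Replication genes were higher by smaller ratios. Of the replication origin and fork list, 25 of 29 genes passed in fibroblasts, 18 of 22 in endothelial nuclei and 12 of 17 in macrophages, with median log2 ratios of 1.77, 1.54 and 1.64 in Q150X and 2.0, 2.01 and 1.30 in WT. Clspn, which carries the checkpoint signal of stalled forks, was 9.45, 9.40 and 9.54 times higher in the 3 classes of Q150X and 10.1, 11.7 and 9.12 in WT. Mcm7, a subunit of the helicase, was at 1.56 in fibroblasts of Q150X and 1.66 in WT and did not pass. Pcna, the sliding clamp of DNA polymerase, stood at 25.2 against 13.5 CPM in fibroblasts of Q150X and 25.9 against 10.1 CPM in WT. Genes of nucleotide supply passed in 6 of 9, 6 of 9 and 4 of 5. Rrm2, the S-phase subunit of ribonucleotide reductase, stood at 64.3 against 3.55 CPM in endothelial nuclei of Q150X and 54.3 against 2.74 CPM in WT, and Tk1, thymidine kinase, at 60.9 against 7.15 and 60.7 against 4.98 CPM in fibroblasts. Ezh2, the methyltransferase of the Polycomb complex and a member of the S-phase chromatin list, was 3.80, 4.51 and 6.20 times higher in fibroblast, endothelial and macrophage nuclei of Q150X and 4.56, 7.26 and 5.83 in WT.

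Recombination and Fanconi genes passed in 16 of 16, 14 of 15 and 11 of 12, with median log2 ratios of 3.33, 2.94 and 2.53 in Q150X and 3.52, 3.44 and 2.30 in WT. Condensin and cohesin genes passed in 9 of 11, 9 of 11 and 8 of 11, among them Esco2, which acetylates cohesin during S phase, at 61.4 against 1.70 CPM in fibroblasts of Q150X and 52.7 against 1.47 CPM in WT. Lmnb1, the B-type lamin of the nuclear envelope, stood at 250 against 40.1 CPM in fibroblasts of Q150X and 266 against 30.6 CPM in WT. Lmna, the A-type lamin, had ratios of 1.45 and 1.94 and did not pass. H1f5, a linker histone, was 6.29 and 12.8 times higher in fibroblasts and macrophages of Q150X, and 11.9 and 12.1 in WT.

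Genes of G1 were divided. Of the G1 cyclin and E2F list, 7 of 16 passed higher in fibroblasts, 7 of 16 in endothelial nuclei and 5 of 15 in macrophages, and 2 were lower in endothelial nuclei. The higher ones included E2f8 and E2f7, repressors at the end of S phase: E2f8 was 36.2 times higher in endothelial nuclei of Q150X and 35.2 in WT, and E2f7 14.8 and 9.66 in macrophages. Among the D-type cyclins, which start the cycle, Ccnd3 and Ccnd2 were at least 2-fold lower in endothelial nuclei of both libraries. Ccnd3 stood at 164 CPM in cycling and 345 CPM in other endothelial nuclei of Q150X and at 116 and 369 CPM in WT, ratios of 0.476 (0.404 to 0.559) and 0.315 (0.253 to 0.388). In fibroblasts its ratios were 0.572 and 0.496 and in macrophages 0.631 and 0.575, so that it was lower in every class of both libraries. Ccnd2 was at 0.404 and 0.344 in endothelial nuclei, while Ccnd1 in fibroblasts was at 0.912 (0.636 to 1.29) and 1.08 (0.732 to 1.56). Of the inhibitors of cyclin-dependent kinases and p53 targets, 1 of 9, 1 of 9 and 0 of 8 passed. Of all genes tested in these classes, 4.11%, 3.91% and 3.33% were higher. The list member that passed was Cdkn2c, an inhibitor of Cdk4 and Cdk6, at 39.4 against 3.30 CPM in endothelial nuclei of Q150X and 46.7 against 3.66 CPM in WT.

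**Figure D4:**
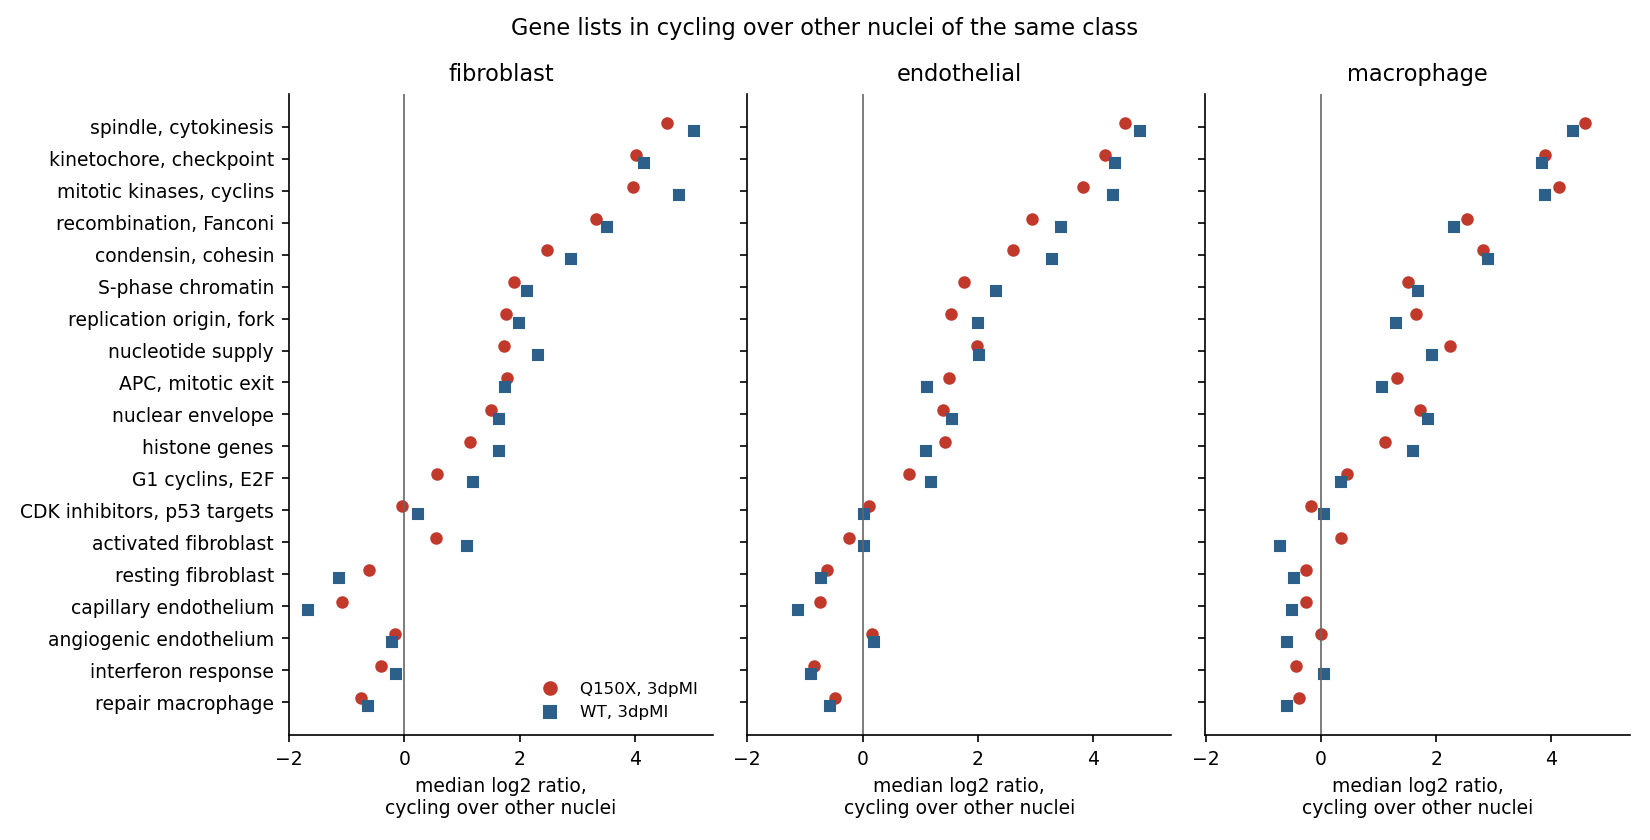
Median log2 ratio of CPM, cycling over other nuclei of the same class, for gene lists (rows) in Q150X (red circles) and WT (blue squares) at 3dpMI, for fibroblast, endothelial and macrophage nuclei. The spindle, kinetochore and mitotic kinase lists lie between 3.82 and 5.03, the replication origin and fork list between 1.30 and 2.01, and the lists of resting fibroblasts (in fibroblasts) and capillary endothelium (in endothelial nuclei) below 0.

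Genes were also named by rank, using in each the 95% bound of the ratio that lay nearest to 1, and these again included genes of division and DNA repair. In fibroblasts they included Parpbp, at 129 against 2.23 CPM in Q150X and 146 against 2.54 CPM in WT, ratios of 57.8 (38.7 to 90.3) and 57.6 (38.5 to 89.5). Pif1, a DNA helicase, had ratios of 85.9 (36 to 269) and 69.0 (30.4 to 193), Ankle1, an endonuclease, 57.5 and 66.0, Troap, a spindle-associated protein, 50.3 and 62.0, and Depdc1b 70.6 and 47.2. Parpbp was also among those named in endothelial nuclei, with 47.3 and 50.6, as were Nusap1, a spindle protein (42.9 and 35.5), and Neil3, a glycosylase that repairs crosslinked DNA, which stood at 274 against 10.4 CPM in Q150X and 273 against 6.95 CPM in WT. In macrophages they included Lockd, a long noncoding RNA next to Cdkn1b, at 218 against 4.15 CPM in Q150X and 188 against 2.34 CPM in WT, ratios of 52.5 (32.9 to 88.7) and 80.3 (35.8 to 223), with Kif4, a motor on mitotic chromosomes, at 38.8 and 48.4. Kif14 was among the 6 named in every class, with 54.4 and 37.0 in endothelial nuclei and 55.2 and 62.9 in macrophages.

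Several genes of resting fibroblasts were lower in cycling fibroblasts. In the resting fibroblast list 7 of 15 genes were at least 2-fold lower, with median log2 ratios of −0.61 in Q150X and −1.13 in WT, and without cardiomyocyte-rich nuclei 6 were lower, with medians of −0.77 and −1.38. Of all genes tested in fibroblasts with all nuclei, 4.11% were higher and 6.70% lower. Scara5, a ferritin receptor of adventitial fibroblasts, stood at 5.14 CPM in cycling and 61.9 CPM in other nuclei of Q150X and at 8.0 and 116 CPM in WT, ratios of 0.0831 (0.0497 to 0.131) and 0.0691 (0.0401 to 0.111). Without cardiomyocyte-rich nuclei, a comparison whose genes were named after their values were seen, the low genes included C7, a complement component, at 14.1 against 196 CPM in Q150X and 16 against 269 CPM in WT, Pi16, a mark of adventitial fibroblasts, at 13.5 against 91.2 and 9.72 against 110 CPM, and Hmcn2, a basement membrane protein, at 19.2 against 169 and 32.1 against 314 CPM. Eln, the elastin gene, had ratios of 0.370 and 0.270. Of 14 activated fibroblast genes none passed 2-fold in both libraries, but all 14 were above 1 in both, with medians of 0.54 in Q150X and 1.09 in WT, or 0.37 and 0.72 without cardiomyocyte-rich nuclei. Kif26b, a kinesin of the list, stood at 2462 against 1299 CPM in Q150X and 2549 against 690 CPM in WT, and Col12a1, a collagen of tissue under load, had ratios of 1.82 and 2.94. With all nuclei, the lowest named genes were genes of heart muscle cells: Esrrb had 0 UMIs in cycling against 168 in other nuclei of Q150X and 5 against 662 in WT, and Chrm2, Xirp2 and Sorbs2 had ratios of 0.0289 to 0.0915.

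In endothelial nuclei the capillary list was on the lower side and the angiogenic list was not. Of 14 capillary genes 3 were at least 2-fold lower, with medians of −0.73 in Q150X and −1.11 in WT, and of 15 angiogenic genes none passed, with medians of 0.16 and 0.19. Of all 9762 genes tested in endothelial nuclei, 3.91% were higher and 1.68% lower, so the angiogenic count is near that share. Timp4, an inhibitor of metalloproteinases in heart capillaries, had 4.80 against 26.6 CPM in Q150X and 6.31 against 51.6 CPM in WT. Lpl, the lipase that frees fatty acids at the capillary wall, had 38.8 against 124 CPM and 67.0 against 238 CPM without cardiomyocyte-rich nuclei, a gene named after its values were seen. Interferon response genes were at least 2-fold lower in 4 of 14, with medians of −0.85 and −0.89, among them Ifit3 at 0.960 against 13.7 CPM in Q150X and 3.79 against 18.8 CPM in WT. Fgf14 had 1 UMI in cycling against 233 in other nuclei of Q150X and a ratio of 0.133 in WT, and Rgs5, a marker of pericytes, had ratios of 0.144 and 0.232. The pericyte markers summed to 63.4 CPM in cycling and 297 CPM in other endothelial nuclei of Q150X and to 257 and 508 CPM in WT, and their part in the Rgs5 ratio was not tested. Angpt2, the tip-cell antagonist of Tie2, had 75.9 against 66.7 CPM in Q150X and 97.2 against 46.3 CPM in WT.

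In cycling macrophages, none of 13 resident macrophage, 13 repair macrophage, 10 interferon or 6 MHC class II genes passed 2-fold in both libraries. Of all 8253 genes tested there, only 3.33% were higher and 2.10% lower, so these counts are near that share. Median log2 ratios were −0.20 in Q150X and −0.14 in WT for the resident list, and −0.38 and −0.60 for the repair list. Of the resident genes 0, and of the repair genes 2, were above 1 in both libraries. Cd163, a haemoglobin scavenger receptor of resident macrophages, stood at 71.4 against 170 CPM in Q150X and 161 against 192 CPM in WT, ratios of 0.420 (0.330 to 0.529) and 0.838 (0.670 to 1.04). Thbs1, thrombospondin 1, had ratios of 0.588 and 0.484. With all nuclei the lowest named genes were Chrm2, Kcnd2, Pcdh7 and Corin, at 0.0271 to 0.169, and cardiomyocyte markers were lower in cycling macrophages as given above. Without cardiomyocyte-rich nuclei the low genes, named after their values were seen, included Kdm5b, a histone demethylase (0.342 in Q150X and 0.259 in WT), Mxd4, an antagonist of MYC (0.430 and 0.246), and Srgn, the proteoglycan of secretory granules (0.445 and 0.401).

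Vegfa itself was lower in cycling than in other fibroblast and macrophage nuclei of both libraries. It stood at 93.9 CPM in cycling and 177 CPM in other fibroblast nuclei of Q150X and at 120 and 213 CPM in WT, ratios of 0.532 and 0.565. In macrophages it stood at 15.0 and 45.6 CPM in Q150X and 14.3 and 59.2 CPM in WT, and in endothelial nuclei at 29.8 and 38.0 CPM in Q150X and 50.5 and 87.9 CPM in WT, with ratios of 0.783 (0.514 to 1.16) in Q150X, an interval that includes 1, and 0.574 (0.405 to 0.793) in WT. Its receptor Kdr in endothelial nuclei stood at 310 and 322 CPM in Q150X and 270 and 352 CPM in WT, ratios of 0.963 and 0.767, and Flt1, one of the genes that chose the class, at 1021 and 1499 CPM in Q150X and 910 and 1636 CPM in WT. Cardiomyocyte markers were lower in cycling nuclei of every class, and their part in the Vegfa ratios was not tested.

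Within the cycling nuclei, few genes were 2-fold apart between genotypes. At least 2-fold higher in Q150X over WT were 1.50% of 10298 genes in cycling fibroblasts, 1.76% of 6463 in cycling endothelial nuclei and 2.10% of 6323 in cycling macrophages, and 0.884%, 2.12% and 1.06% were at least 2-fold lower. Without cardiomyocyte-rich nuclei the higher genes numbered 155, 106 and 136, where all nuclei gave 154, 114 and 133, and the lower genes 34, 66 and 61, where all nuclei gave 91, 137 and 67. Without called doublets, 159 genes were higher and 46 lower in fibroblasts, 83 and 70 in endothelial nuclei, and 78 and 79 in macrophages. Nuclei with 2 or more genes of a second class were then left out. The same counts were 107 and 67 in fibroblasts, 44 and 66 in endothelial nuclei, and 59 and 59 in macrophages, with fewer genes tested. Below, nuclei without genes of a second class are those with at most 1 gene of any other class. The median gene stood at 0.03 to 0.04 on the log2 scale. With 1 library in each group these are differences between those libraries, and a gene that one nucleus carried is named with that nucleus.

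The 11 rule genes chose the cycling nuclei, so their ratios between genotypes are a description and support no likeness or difference. Their median log2 ratio, Q150X over WT, was −0.09 in cycling fibroblasts, 0.14 in endothelial nuclei and −0.10 in macrophages. In other nuclei of these classes, which the same rule left below its threshold, it was 0.43, 0.66 and −0.10. Mki67, a rule gene, stood at 400, 734 and 734 CPM in cycling fibroblast, endothelial and macrophage nuclei of Q150X, and at 453, 632 and 787 CPM in WT. Medians of the other cell-cycle lists lay between −0.10 and 0.52. In the list of mitotic exit, 2 of 9 genes passed in endothelial nuclei: Fzr1, an activator of the anaphase-promoting complex, at 54.7 CPM in Q150X and 25.2 CPM in WT, a ratio of 2.17 (1.28 to 3.81), and Cdc20, its other activator, at 35.5 and 17.7 CPM, a ratio of 2.01 (1.06 to 4.03). The ratio of Cdc20 was 1.73 without called doublets and 1.86 without its top nucleus, and that of Fzr1 was 1.98 in nuclei without genes of a second class. Of all genes tested in cycling endothelial nuclei, 1.76% were at least 2-fold higher. Among genes that did not pass, Cenpe in macrophages stood at 266 CPM in Q150X and 356 CPM in WT, a ratio of 0.747 (0.627 to 0.892), and Ccnd3 in fibroblasts at 273 and 168 CPM, a ratio of 1.63 (1.44 to 1.84).

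In cycling fibroblasts the genes named as higher in Q150X were higher in the other fibroblast nuclei as well. Ptn, the growth factor pleiotrophin, stood at 216 CPM in Q150X and 80.9 CPM in WT, a ratio of 2.67 (2.27 to 3.17), and had a ratio of 3.65 in other nuclei. Fosb, an AP-1 factor of the immediate early response, stood at 65.5 and 18.3 CPM, a ratio of 3.57 (2.54 to 5.14), with 2.08 in other nuclei. Dkk2, a modulator of Wnt signalling, stood at 44.4 and 12.7 CPM, a ratio of 3.49 (2.32 to 5.46), with 2.03 in other nuclei. Kcnma1, a potassium channel, stood at 24.6 and 4.23 CPM, but 57 of its 91 UMIs in Q150X lay in 1 nucleus, and its ratio of 5.81 was 2.18 without it. Lower in Q150X were Btaf1, which removes TATA-binding protein from promoters, at 177 and 362 CPM (0.491, 0.441 to 0.545), Hmga2, an architectural chromatin protein, at 50 and 98.3 CPM (0.509), and Ccbe1, needed for lymphatic growth, at 195 and 379 CPM (0.515), with ratios of 0.702, 0.681 and 0.790 in other nuclei. Nkain2 stood at 15.1 and 56.4 CPM, with 43 of its 120 WT UMIs in 1 nucleus, and its ratio of 0.268 was 0.417 without it and 0.517 in nuclei without genes of a second class. In those nuclei Kcnma1 had 88 UMIs in Q150X and 4 in WT, a ratio of 14.5, with the nucleus of 57 UMIs still among them. The ratio of Fosb there was 5.45, and without called doublets it was 7.51. Vegfa stood at 93.9 CPM in Q150X and 120 CPM in WT, a ratio of 0.779 (0.661 to 0.920) that was 0.894 without cardiomyocyte-rich nuclei, and at 177 and 213 CPM in other nuclei, a ratio of 0.828.

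Macrophage genes appeared in cycling fibroblast nuclei of Q150X at low levels. Of the repair macrophage list, 7 of 11 genes were at least 2-fold higher in cycling fibroblasts, where 1.50% of all genes tested were. The median log2 ratio of the list was 1.33, and it was 1.29 in other fibroblast nuclei. Spp1, osteopontin, stood at 104 CPM in Q150X and 37.6 CPM in WT (2.75, 2.16 to 3.55), Arg1, arginase, at 14.1 and 2.82 CPM (4.98, 2.14 to 14.2), and Ctsd, a lysosomal protease, at 66.0 and 26.3 CPM (2.51, 1.87 to 3.41). Of MHC class II genes, 3 of 4 passed: Cd74, the invariant chain, at 29.2 CPM in Q150X and 3.29 CPM in WT (8.87, 4.16 to 22.6), Ciita, the class II activator, at 14.1 and 1.41 CPM (9.97, 3.23 to 49.9), and H2-Aa at 12.7 and 2.82 CPM (4.5, 1.92 to 12.9). Only 4 of the 7 genes of this list reached 50 UMIs, and genes this low in WT could reach them only through Q150X. The 4 macrophage split genes summed to 185 CPM in cycling and 235 CPM in other fibroblast nuclei of Q150X, and to 153 and 166 CPM in WT, and their part in these ratios was not tested. Without cardiomyocyte-rich nuclei and nuclei with genes of a second class, 4 of 9 repair macrophage genes passed, with a median of 0.88, and without called doublets 4 of 10, with 0.94. Within fibroblast nuclei without genes of a second class, Cd74 had 55 UMIs in Q150X and 4 in WT, a ratio of 9.05. None of 14 activated fibroblast genes and none of 19 matrix genes passed in cycling fibroblasts. Of all 10298 genes tested there, 1.50% were higher and 0.884% lower, so these counts are near that share. The median of the activated fibroblast list was 0.09, where other fibroblast nuclei had a median of 0.83.

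In cycling endothelial nuclei, Igfbp3 and Igfbp5, which bind insulin-like growth factors, were among the genes named as higher in Q150X. Igfbp3 stood at 75.9 CPM in Q150X and 11.4 CPM in WT, a ratio of 6.68 (3.35 to 15.1), and at 103 and 50.1 CPM in other nuclei, a ratio of 2.06. Igfbp5 stood at 215 and 88.3 CPM, a ratio of 2.44, with 1.42 in other nuclei, but 57 of its 224 UMIs in Q150X lay in 1 nucleus, and its ratio was 1.83 without it. H2-Q6, an MHC class I gene with close copies, stood at 54.7 and 16.4 CPM (3.34), and Pgk1, a glycolytic enzyme with near-identical pseudogenes, at 53.8 and 16.4 CPM (3.28), so that both are uncertain where reads could be split between copies. The genes named as lower were partly set by single WT nuclei. Csmd1 stood at 6.72 and 189 CPM, with 142 of its 150 WT UMIs in 1 nucleus, and its ratio of 0.0355 was 0.661 without it, and Mctp1 stood at 133 and 438 CPM, with 133 of 347 WT UMIs in 1 nucleus, and its ratio of 0.305 was 0.487 without it. Srgap3, a regulator of Rac, stood at 34.6 and 135 CPM (0.256), and Cadm1, an adhesion molecule, at 15.4 and 68.1 CPM (0.225), and had ratios of 0.295 and 0.274 without their top nucleus. In endothelial nuclei with at most 1 gene of a second class the ratio was 4.35 for Igfbp3, 4.79 for Igfbp5, 0.0850 for Mctp1, 0.145 for Srgap3 and 0.377 for Cadm1, and Csmd1 had 2 UMIs in each library. Selp, the P-selectin of activated endothelium, stood at 70.1 and 168 CPM (0.418), and at a ratio of 1.09 without 1 WT nucleus that held 83 of 133 UMIs.

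The VEGF receptors of cycling endothelial nuclei were close in both genotypes. Kdr stood at 310 CPM in Q150X and 270 CPM in WT, a ratio of 1.15 (0.963 to 1.37), against 0.915 in other endothelial nuclei. Flt1 stood at 1021 and 910 CPM, a ratio of 1.12 (1.02 to 1.24), against 0.916 in other nuclei. Vegfa stood at 29.8 and 50.5 CPM, a ratio of 0.590 (0.357 to 0.967), against 0.432 in other nuclei. In endothelial nuclei the cardiomyocyte markers summed to 986 CPM in cycling nuclei of Q150X and 4237 CPM in those of WT. Without cardiomyocyte-rich nuclei Vegfa had 24 UMIs in cycling endothelial nuclei of Q150X and 19 in those of WT, a ratio of 0.895, and without called doublets its ratio was 0.947.

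In cycling macrophages, genes of the repair macrophage list were partly higher in Q150X, with 4 of 13 at least 2-fold higher and a median of 0.63. Of all 6323 genes tested there, 2.10% were at least 2-fold higher. Gpnmb, a glycoprotein of lipid-laden and repair macrophages, stood at 546 CPM in Q150X and 119 CPM in WT, a ratio of 4.58 (3.60 to 5.90), and at 556 and 296 CPM in other macrophages, a ratio of 1.88. Spp1 stood at 475 and 170 CPM, a ratio of 2.79 (2.27 to 3.47), with 2.32 in other macrophages, and Thbs1 at 168 and 68.3 CPM, a ratio of 2.46 (1.76 to 3.51) that was 1.33 in nuclei without genes of a second class. Il7r, the interleukin 7 receptor, stood at 80.2 and 22.3 CPM (3.60, or 9.50 in nuclei without genes of a second class), and Adra1a, an adrenergic receptor, had 46 UMIs in Q150X and 4 in WT (6.37, 2.33 to 24.4). Lower were Slc7a11, the cystine importer, at 16.7 and 113 CPM (0.148), and Srxn1, which restores oxidised peroxiredoxin, at 11.5 and 62.0 CPM (0.185), with 0.231 and 0.418 without their top nucleus. In nuclei without genes of a second class Slc7a11 had 11 UMIs in Q150X and 17 in WT, a ratio of 0.569, and Srxn1 had 5 and 9, a ratio of 0.489. The heat shock genes Hspa1a and Hspa1b, near-identical copies, had 0 and 1 UMIs in Q150X and 115 and 125 in WT, of which 113 and 122 lay in single nuclei. Cd163 stood at 71.4 and 161 CPM, a ratio of 0.445 (0.328 to 0.601) that was 0.546 without called doublets.

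Some lists in cycling macrophages moved with nuclei that carried genes of 2 classes or with a single nucleus. Of the activated fibroblast list 5 of 8 passed, among them Kif26b at 261 CPM in Q150X and 23.8 CPM in WT (10.9, 6.52 to 19.8), and in macrophage nuclei without genes of a second class its ratio was 1.13, from 9 and 7 UMIs. Tnc, tenascin C, stood at 223 and 46.1 CPM, with 125 of 253 UMIs in 1 Q150X nucleus, and had a ratio of 1.25 in nuclei without genes of a second class. Of the matrix list 4 of 14 passed, with Col5a2 at 264 and 65.2 CPM (4.06) and at 1.57 in those nuclei. The fibroblast split genes summed to 1336 CPM in cycling macrophage nuclei of Q150X and 625 CPM in those of WT, and to 1006 and 815 CPM in other macrophages. Of MHC class II genes, 3 of 5 were at least 2-fold lower in Q150X: Cd74 at 61.7 and 143 CPM (0.431), H2-Ab1 at 26.4 and 68.3 CPM (0.387) and H2-Eb1 at 21.1 and 60.4 CPM (0.350), with ratios of 0.805, 0.705 and 0.618 without 1 WT nucleus. Of the interferon list 2 of 9 were lower, Mx1 at 0.494 and Rsad2 at 0.266, with 0.685 and 0.900 without 1 WT nucleus. Of all genes tested in cycling macrophages, 2.10% were at least 2-fold higher and 1.06% lower.

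**Figure D5:**
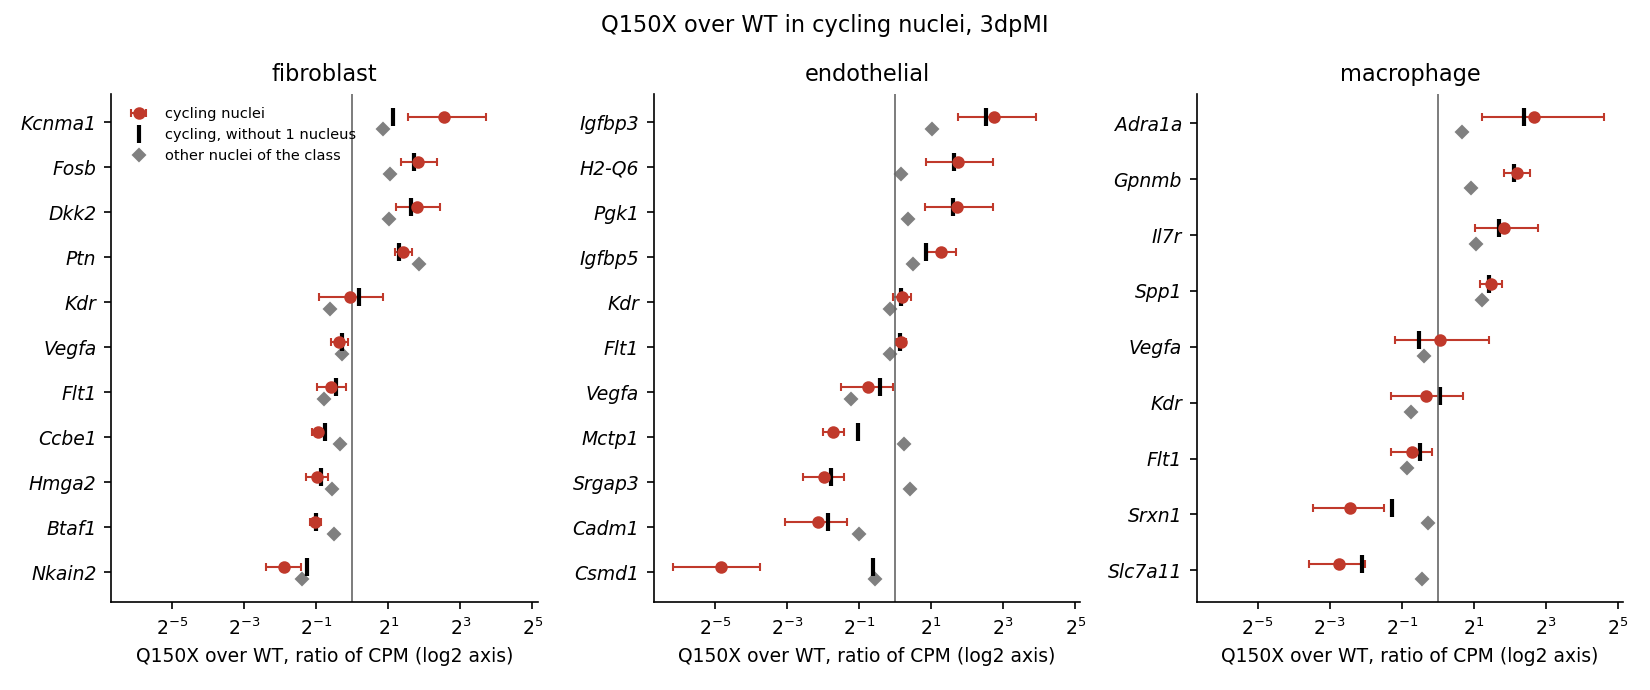
Ratio of CPM, Q150X over WT (log2 axis), for named genes in cycling fibroblast, endothelial and macrophage nuclei at 3dpMI: red circles with 95% intervals for cycling nuclei, black ticks for cycling nuclei without the 1 nucleus with most UMIs of the gene in the library where it was higher, grey diamonds for other nuclei of the class. Hspa1a and Hspa1b are left out; ticks far from circles mark genes that 1 nucleus carried, such as Csmd1, at 0.0355 with and 0.661 without it.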

How the data were processed

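Nuclei were isolated from mouse heart and sequenced with the 10x Chromium 5' kit, version 2, per the labels' protocols. The authors deposited raw counts of UMIs for each gene in each nucleus. The file headers name Cell Ranger 7.1.0 as the software that made them. The submitters' processing notes name the build GRCm39 and Scanpy, without its role. Every deposited barcode held at least 500 UMIs, so barcodes had been filtered before deposit. The matrix has 33954 genes.

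The genes and lists were chosen with earlier results of these data known. At 3dpMI the filters removed 5 nuclei by genes and 1 by mitochondrial share in Q150X, and 8 and 0 in WT. Within a library, the UMIs of a gene were added over the nuclei of a class and divided by all their UMIs (CPM). Called genes had at least 50 UMIs and a ratio of at least 2 or at most 0.5, in both libraries for cycling over other nuclei. A class needed at least 2 of its 4 genes and more than any other class, while cycling nuclei were counted by most genes. Doublets were called with Scrublet in Scanpy 1.11.5 (810 nuclei, 9.98%, in Q150X and 1111, 12.1%, in WT at 3dpMI) and kept in the values unless stated. Counts were thinned with seed 1. The gene ratios of Q150X over WT were checked on simulated Poisson counts, which do not hold UMIs gathered in single nuclei. Shares, thinning and the split were not checked in this way. The calculations used pandas 2.3.3, numpy 2.4.6, matplotlib 3.10.9 and scipy 1.17.1 under Python 3.11.15.

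Named genes follow a rule. For cycling over other nuclei, the 6 highest and 4 lowest of each class were ranked by the 95% bound nearest to 1, taking the smaller of both libraries. For Q150X over WT, 4 at each end were taken among genes whose CPM in the cycling nuclei of the class was at least that of nuclei outside it, in the library where it was higher. Mitochondrial, ribosomal protein, haemoglobin and sex-linked genes, gene models without a symbol and the 11 rule genes were left out. Up to 2 genes at each end of each of 27 lists, and Vegfa, Kdr and Flt1, could be named too, and genes named beside these were chosen after their values were seen. Levels compare a gene between nuclei and not genes with each other.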

Additional observations from a re-analysis of the deposited data

Results flagged for a closer look

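Cd74, the invariant chain of MHC class II, differed in direction between cycling classes. Its ratio of CPM, Q150X over WT, was 8.87 in cycling fibroblast nuclei, at 29.2 CPM in Q150X and 3.29 CPM in WT, and 0.431 in cycling macrophage nuclei, at 61.7 and 143 CPM. The macrophage ratio was 0.805 without 1 WT nucleus that held 43 of 90 UMIs. The difference between the classes was not tested.

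Pdgfrb, the receptor of pericytes and other mural cells, also differed in direction. Its ratio was 4.30 in cycling macrophage nuclei, at 54.6 CPM in Q150X and 12.7 CPM in WT, and 0.435 in cycling endothelial nuclei, at 26.9 and 61.8 CPM. In nuclei with at most 1 gene of a second class, the UMIs of Pdgfrb were 0 in Q150X and 1 in WT for macrophages, and 0 and 8 for endothelial nuclei. This difference was not tested either.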

How the results depend on the processing

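Of 129 alternatives for 13 results, 118 stayed within counting error or 1.5 times the main count, 11 moved and 0 reversed. The ratio of cycling shares, Q150X over WT, with thinning to 2000 UMIs was 1.45 in all nuclei, 1.33 in fibroblasts and 1.55 in endothelial nuclei. Without cardiomyocyte-rich nuclei and with thinning, an alternative chosen after seeing the data, it was 1.22, 1.27 and 1.53. With at least 100 UMIs per gene, 1.15%, 2.41% and 2.09% of genes passed 2-fold between genotypes in cycling fibroblast, endothelial and macrophage nuclei, where 50 UMIs gave 2.38%, 3.88% and 3.16%. Other alternatives were chosen after seeing the data as well. Without cardiomyocyte-rich nuclei, 3.55% of genes passed between cycling and other macrophages, where all nuclei gave 5.43%. Without those and nuclei with 2 or more genes of a second class, 1.45% passed between genotypes in cycling fibroblasts, where all nuclei gave 2.38%. The causes were not tested, except that fewer genes or nuclei entered. The make-up ratios did not move under any alternative run for them. No paired analysis was possible because each group has 1 library.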
